A study of Homo sapiens with 6 samples.

Results

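The aryl hydrocarbon receptor (AHR) pathway was examined in MDA-MB-231 breast cancer cells and in Adriamycin-resistant cells derived from them. The 9 genes were taken by symbol from the 58735 genes of the deposited count table, and all 9 had enough reads to be tested. They are the receptor AHR, its partners ARNT and ARNT2, the feedback repressors AHRR and TIPARP, the enzymes CYP1A1 and CYP1B1, and the reductases POR and NQO1, which act on quinones or serve the CYP1 enzymes. The question addressed was whether RNA levels of these genes differed between resistant and parent cells.

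AHR is a ligand-activated transcription factor of the bHLH-PAS family that waits in the cytoplasm, bound to HSP90 and co-chaperones. After binding a ligand such as a polycyclic aromatic hydrocarbon or a tryptophan metabolite, it enters the nucleus, pairs with ARNT and binds the xenobiotic response element, whose core is the letters GCGTG. CYP1A1 and CYP1B1 are its classical targets, and AHRR and TIPARP are induced by it and in turn dampen it. Adriamycin (ADR, doxorubicin) is an anthracycline, a drug with a quinone group that cellular reductases can act on.

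The parent cells were MDA-MB-231, a triple-negative and mesenchymal-like breast cancer cell line with wild-type genotype in the labels. The ADRr cells were obtained from it by stepwise exposure to rising ADR concentrations and limiting dilution into single clones, so the choice of a clone and the exposure to drug cannot be told apart. The labels give the same culture medium for both groups, and no ADR dose at harvest is stated. Each group had 3 libraries of bulk RNA. Nothing in the labels says that these were separate cultures, and the series record mentions 3 time points that no label names, so the p-values measure only the spread between these libraries, which may be technical. In bulk RNA, fewer cells that express a gene and less RNA per cell cannot be told apart.

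Total counts per library ranged from 15983985 to 18272314. Levels are given as CPM, which are counts scaled to a fixed library total. Where a gene had 0 counts, its level could still have been as high as 0.164 to 0.188 CPM, the worth of 3 counts, a limit for counting error only. VIM, CD44, EGFR, KRT8 and KRT18 had 2522 to 27086 counts, while ESR1 and PGR, which a triple-negative line lacks, had 0 to 1. Of 10 leukocyte and endothelial markers, 8 were at or under 3 counts in each parent library and 7 in each ADRr library. Their summed level was 51.5 to 56.0 CPM in parent and 84.8 to 90.2 CPM in ADRr libraries, nearly all of it from LAPTM5, which rose from 853, 886 and 945 counts to 1500, 1444 and 1574. The leukocyte markers PTPRC, TYROBP and LYZ had 0 to 2 counts in every library. CD53 had 0 counts in each parent library and 4, 1 and 3 in ADRr libraries, and the endothelial marker VWF had 0 in each parent library and 2, 7 and 4 in ADRr libraries. LAPTM5 was the 1 marker called higher by edgeR, while DESeq2, or edgeR with no filter on low counts, called 2. The part of these markers in the results was not tested.

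A gene was called when edgeR's quasi-likelihood test gave a Benjamini-Hochberg adjusted p of at most 0.05 and the fold change was at least 1.2 in either direction. Of the 9 genes, 6 were called higher in ADRr cells (AHR, AHRR, TIPARP, CYP1A1, CYP1B1 and POR), 1 was called lower (ARNT2), and ARNT and NQO1 were not called. Calls were common in these libraries: 29.2% of all 15242 tested genes were called higher and 29.6% lower. By the libraries alone, 7 of the 9 genes had all ADRr values above all parent values, against 34.5% of tested genes, and 1 had all below, against 34.7%. Over all tested genes the median log2 fold change was -0.01, and 19.1% changed by at least 1 on the log2 scale in either direction, a size reached by 5 of the 9 genes.

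**Figure D1:**
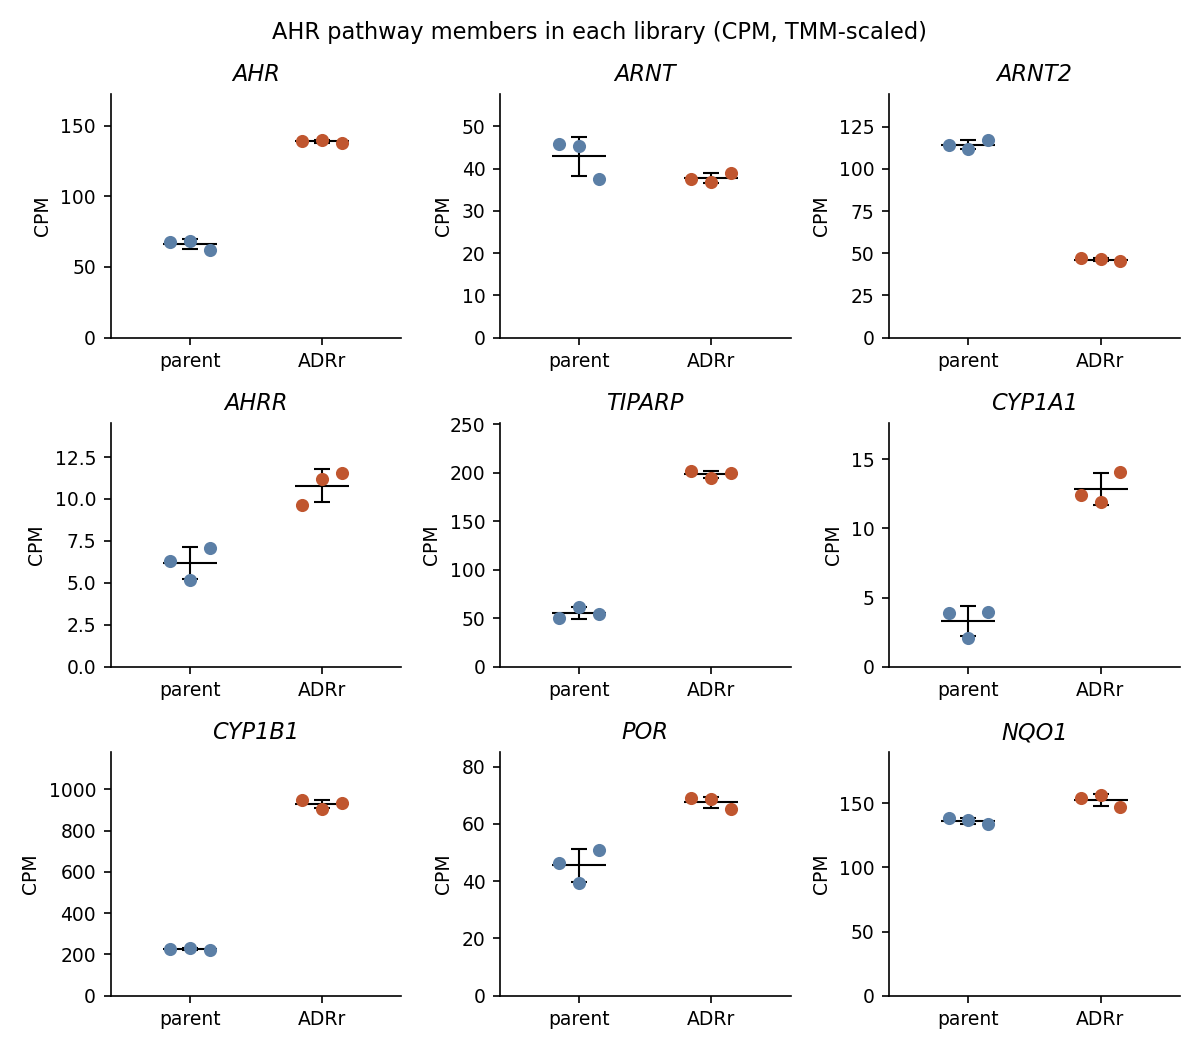
Expression of the 9 genes in each library (y axis, CPM after TMM scaling, from 0; points are libraries, replicates 1 to 3 from left to right, the long bar is the mean and the whiskers are 1 SD, n = 3 per group). Only for ARNT do the points of both groups share a range, and CYP1B1 has the highest levels, near 226 CPM in parent and 930 CPM in ADRr cells.

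Short stretches of the promoters are shown here because they hold the letters of the core of the xenobiotic response element. RefSeq promoter windows (GRCh38.p14, from 250 bases before to 50 bases after a transcription start) were found for 6 of the 9 genes and 9 starts in all (1 each for AHR, ARNT, CYP1A1 and NQO1, 2 for AHRR and 3 for TIPARP), and not for ARNT2, CYP1B1 or POR. The core GCGTG was searched on both strands. Capitals mark the core, which reads CACGC where it lies on the opposite strand, and each line is written 5′ to 3′ on the gene's own strand.
AHR: tctgttccgagaGCGTGccccggac
AHRR first start: ggcgggcggctcGCGTGccggggtggggc
AHRR second start, distal: ggcGCGTGacaggcaggggc
AHRR second start, proximal: gcagaagggtggGCGTGtgcgcgcgttct
TIPARP first start, distal: cgcgagaaaggaCACGCcccctcgcggga
TIPARP first start, proximal: cgaacgaacgcgCACGCgcgcgcaggggg
CYP1A1: ccagggaaggagGCGTGgccacacgtaca
NQO1: ccgtgcactacaCACGCgactcccacaag

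The AHR stretch lies at chr7:17298677-17298701 (plus strand) in the first transcribed bases, with the core 38 bases into the transcript. The AHRR stretches lie at chr5:321672-321700, chr5:322360-322379 and chr5:322556-322584 (plus strand), with cores 30, 247 and 42 bases before their starts. The TIPARP stretches lie at chr3:156674370-156674398 and chr3:156674436-156674464 (plus strand), with cores 208 and 142 bases before the first start. The CYP1A1 stretch lies at chr15:74725569-74725597 (minus strand), with the core 57 bases before the start. The NQO1 stretch lies at chr16:69726543-69726571 (minus strand) across the start, with the core from the second transcribed base. These places are counted from the RefSeq starts. In GENCODE, another gene annotation, the CYP1A1 stretch and both TIPARP stretches also overlap an exon of their own gene. So does the proximal stretch of the second AHRR start, and these stretches may therefore be transcribed.

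In all, 6 of the 9 starts held at least 1 core, and the second AHRR start and the first TIPARP start held 2 each. Of all 35116 RefSeq promoter windows of the same length, 36.5% held at least 1 and 12.7% at least 2. The windows of these genes were rich in G and C (61.0 to 79.3%, except 38.0% at the last TIPARP start), against a median of 58.7% over all windows. The letters TGACNNNGC, the core of the antioxidant response element through which NRF2 acts, were found on either strand in 13.3% of all windows and, among the 9 starts, only at that of ARNT, where no GCGTG was present to overlap it. A match is a description of these letters and not evidence of binding. Bases outside these windows were not searched, so the absence of a match says nothing about sites farther from the start.

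AHR itself was higher in ADRr cells. The gene (ENSG00000106546, chr7:16916359-17346152, plus strand) had 1128, 1088 and 1093 counts in the parent libraries and 2502, 2290 and 2520 in the ADRr libraries. The groups did not overlap and the 3 ADRr libraries lay close together. The mean level was 66.2 CPM ± 3.55 (SD, n = 3) in parent and 138.8 CPM ± 1.27 (SD, n = 3) in ADRr cells, a log2 fold change of 1.07 (SE 0.059, adjusted p = 3.0e-13) or 2.10-fold. An antisense gene within its span, AC073332.1, had 7 to 17 counts in every library and was not called (log2 fold change 0.45, adjusted p = 0.35).

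Neither partner of AHR rose with it: ARNT2 fell and ARNT was not called. ARNT (ENSG00000143437, chr1:150809705-150876768, minus strand), the obligate partner of AHR and of the hypoxia-inducible factors, had 764, 717 and 659 counts in parent and 676, 602 and 714 in ADRr libraries. After scaling, the third parent library (37.5 CPM) fell within the ADRr range of 36.8 to 38.9 CPM while the other parent libraries lay above it, at 45.9 and 45.3 CPM. The log2 fold change of ARNT was -0.18 (95% interval -0.35 to -0.01, adjusted p = 0.057). Without the third parent library ARNT was called lower, at a log2 fold change of -0.27 (adjusted p = 0.0024).

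ARNT2 (ENSG00000172379, chr15:80404350-80597937, plus strand), the ARNT paralog best known from the nervous system, had 1903, 1767 and 2055 counts in parent and 850, 760 and 828 in ADRr libraries. Every ADRr library lay well below every parent library. The mean fell from 114.3 CPM ± 2.63 to 46.3 CPM ± 1.05 (SD, n = 3 each), a log2 fold change of -1.30 (SE 0.060, adjusted p = 1.4e-14), or 2.47-fold lower. AC108451.2, a short antisense gene within ARNT2, had 10, 11 and 21 counts in parent and 4, 0 and 6 in ADRr libraries and was also called lower (log2 fold change -2.10, adjusted p = 0.0047). The strand setting of the counting is not given in the sources used here, so reads of a gene and of its antisense partner cannot be told apart.

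Per length, in FPKM (fragments scaled to gene length and library size), ARNT2 exceeded ARNT in every parent library, with ratios of 2.10, 2.07 and 2.63. In ADRr cells the ratios were 1.06, 1.06 and 0.976, so that both partners stood at almost the same level. The mean log2 difference of this ratio was -1.13 (exact two-sided permutation test, p = 0.1, the smallest that 3 against 3 libraries allow, adjusted p = 0.13 over 4 ratios).

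Both feedback repressors rose. AHRR (ENSG00000063438, chr5:304176-438291, plus strand), which competes with AHR for ARNT and represses its targets, had 105, 82 and 124 counts in parent and 174, 183 and 212 in ADRr libraries. The groups did not overlap, although AHRR remained among the least abundant of the 9 genes. Its mean was 6.18 CPM ± 0.943 and 10.8 CPM ± 1.00 (SD, n = 3 each), a log2 fold change of 0.80 (SE 0.15, adjusted p = 4.4e-05). PDCD6, which overlaps the start of AHRR on the same strand, had 1428 to 1847 counts and a log2 fold change of 0.04 (adjusted p = 0.63). The FPKM ratio of AHRR to AHR was 0.0989 ± 0.0201 in parent and 0.0820 ± 0.0079 in ADRr cells (SD, n = 3 each), and these ratios overlapped between groups (exact permutation p = 0.3, adjusted p = 0.3).

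TIPARP (ENSG00000163659, chr3:156673235-156706770, plus strand) encodes a mono-ADP-ribosyltransferase that modifies AHR and limits its activity. It had 831, 979 and 947 counts in parent and 3635, 3189 and 3656 in ADRr libraries. The lowest ADRr library held more than 3 times the counts of the highest parent library. The mean rose from 55.2 CPM ± 6.07 to 198.7 CPM ± 3.60 (SD, n = 3 each), a log2 fold change of 1.85 (SE 0.067, adjusted p = 1.6e-16) or 3.60-fold. Of all tested genes, 457 rose by at least as much, TIPARP included. TIPARP-AS1, which runs in the opposite direction from the same start region, had 2, 2 and 2 counts in parent and 4, 5 and 10 in ADRr libraries and was too low to be tested.

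Both tested CYP1 enzymes rose. CYP1B1 (ENSG00000138061, chr2:38066973-38109902, minus strand), a monooxygenase that hydroxylates estrogens and polycyclic aromatic compounds outside the liver, had 3761, 3678 and 3858 counts in parent and 17049, 14855 and 17150 in ADRr libraries. All 3 ADRr libraries stood far above the parent libraries, whose own values were nearly the same. The mean rose from 225.9 CPM ± 6.45 to 930.1 CPM ± 20.3 (SD, n = 3 each), a log2 fold change of 2.04 (95% interval 1.94 to 2.14, adjusted p = 8.4e-20) or 4.12-fold. Among tested genes, 360 (2.36%) rose by at least as much, CYP1B1 included.

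CYP1A1 (ENSG00000140465, chr15:74719542-74725610, minus strand), the most widely used readout of AHR activity, was a low-abundance transcript in these cells. It had 65, 33 and 70 counts in parent and 224, 195 and 259 in ADRr libraries. The second parent library, at 2.08 CPM, lay below the others of its group, at 3.91 and 3.98 CPM, but every parent library was far under the ADRr range. The mean was 3.32 CPM ± 1.07 in parent and 12.8 CPM ± 1.15 in ADRr cells (SD, n = 3 each), a log2 fold change of 1.94 (95% interval 1.57 to 2.31, adjusted p = 2.3e-09) or 3.83-fold. Its interval overlapped those of CYP1B1 and TIPARP, and on log2(FPKM + 1) its difference was 1.27, below the 1.77 of TIPARP. CYP1A2, the remaining CYP1 enzyme, had a single count in all 6 libraries together.

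Transcripts from the CYP1B1 locus rose together. CYP1B1-AS1, on the opposite strand (chr2:38073447-38231651), had 22, 38 and 25 counts in parent and 105, 98 and 96 in ADRr libraries, a log2 fold change of 1.73 (SE 0.23, adjusted p = 9.3e-07). RMDN2-AS1, which overlaps the 3′ end of CYP1B1 on the same strand, had 8, 3 and 3 against 32, 36 and 34 counts (log2 fold change 2.76, adjusted p = 7.0e-06). RMDN2, which meets CYP1B1 end to end from the opposite strand, had 33 to 48 counts in parent and 32 to 40 in ADRr libraries and was not called (log2 fold change -0.28, adjusted p = 0.37). Reads that fall where these genes overlap could not be assigned to one of them here.

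**Figure D2:**
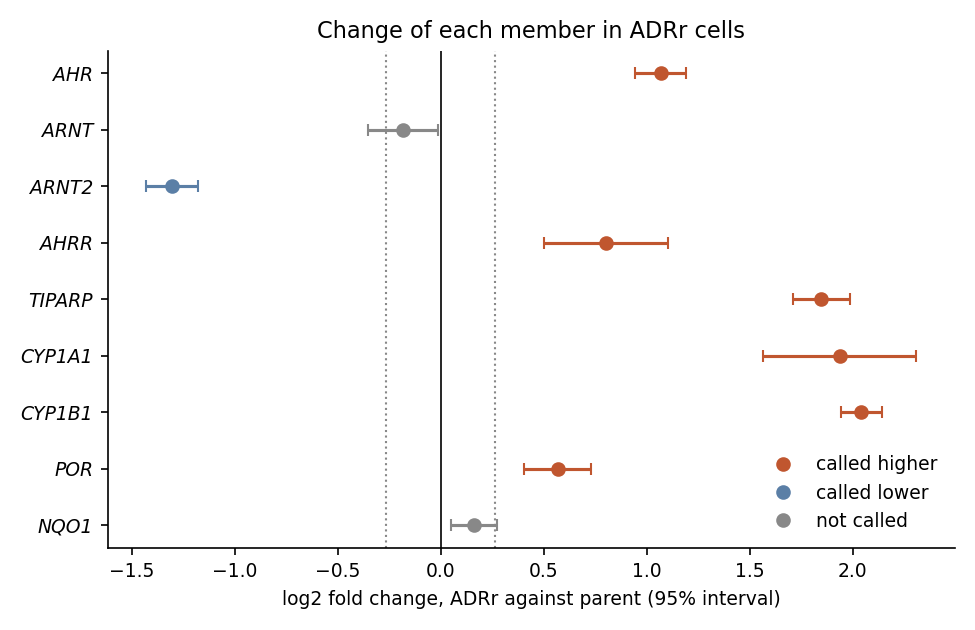
Log2 fold change of each gene, ADRr against parent (x axis; points are edgeR estimates, bars are 95% intervals, dotted lines mark a 1.2-fold change in either direction). CYP1B1 (2.04), CYP1A1 (1.94) and TIPARP (1.85) lie farthest to the right, ARNT2 (-1.30) lies farthest to the left, and the intervals of ARNT and NQO1 cross a dotted line.

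The reductases differed by less between the groups. POR (ENSG00000127948, chr7:75899200-75986855, plus strand) passes electrons from NADPH to the microsomal cytochrome P450 enzymes, CYP1A1 and CYP1B1 among them, and can reduce anthracyclines to semiquinones. It had 772, 624 and 892 counts in parent and 1241, 1122 and 1199 in ADRr libraries. The ADRr libraries were all higher, while the parent libraries spread more widely. The mean was 45.5 CPM ± 5.71 and 67.6 CPM ± 1.96 (SD, n = 3 each), a log2 fold change of 0.57 (SE 0.079, adjusted p = 1.2e-06) or 1.48-fold. TMEM120A, which meets the end of POR on the opposite strand, was not called (log2 fold change 0.20, adjusted p = 0.058).

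NQO1 (ENSG00000181019, chr16:69706996-69726951, minus strand) reduces quinones fully to hydroquinones and responds to both AHR and NRF2. MDA-MB-231 cells are known to carry a form of NQO1 whose protein is unstable. It had 2300, 2173 and 2351 counts in parent and 2769, 2564 and 2703 in ADRr libraries. The groups did not overlap, but they lay close together. The mean was 136.4 CPM ± 2.37 and 152.6 CPM ± 4.76 (SD, n = 3 each), a 1.12-fold difference that passed the adjusted p (0.0099) and not the fold threshold (log2 fold change 0.16, 95% interval 0.05 to 0.27). Without ADRr replicate 2 the adjusted p was 0.0503. NQO2, its paralog, had a log2 fold change of -0.03 (adjusted p = 0.70).

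The order of the 9 genes by level per length also differed between the groups. In parent cells the order by FPKM was NQO1 (41.0 ± 0.821), CYP1B1 (36.8 ± 1.09), ARNT2 (14.5 ± 0.322), TIPARP (10.7 ± 1.16), AHR (8.02 ± 0.445), POR (7.29 ± 0.909), ARNT (6.45 ± 0.720), CYP1A1 (0.947 ± 0.306) and AHRR (0.788 ± 0.120; SD, n = 3). AHR and POR, POR and ARNT, and CYP1A1 and AHRR were neighbours in this order whose libraries overlapped. In ADRr cells CYP1B1 came first, at 151.9 FPKM ± 3.64, followed by NQO1 (46.1 ± 1.31), TIPARP (38.7 ± 0.780), AHR (16.9 ± 0.109), POR (10.9 ± 0.293), ARNT2 (5.87 ± 0.125), ARNT (5.69 ± 0.180), CYP1A1 (3.67 ± 0.340) and AHRR (1.38 ± 0.129). There only ARNT2 and ARNT overlapped. CYP1B1 thus passed NQO1, and ARNT2 dropped from the third to the sixth place.

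**Figure D3:**
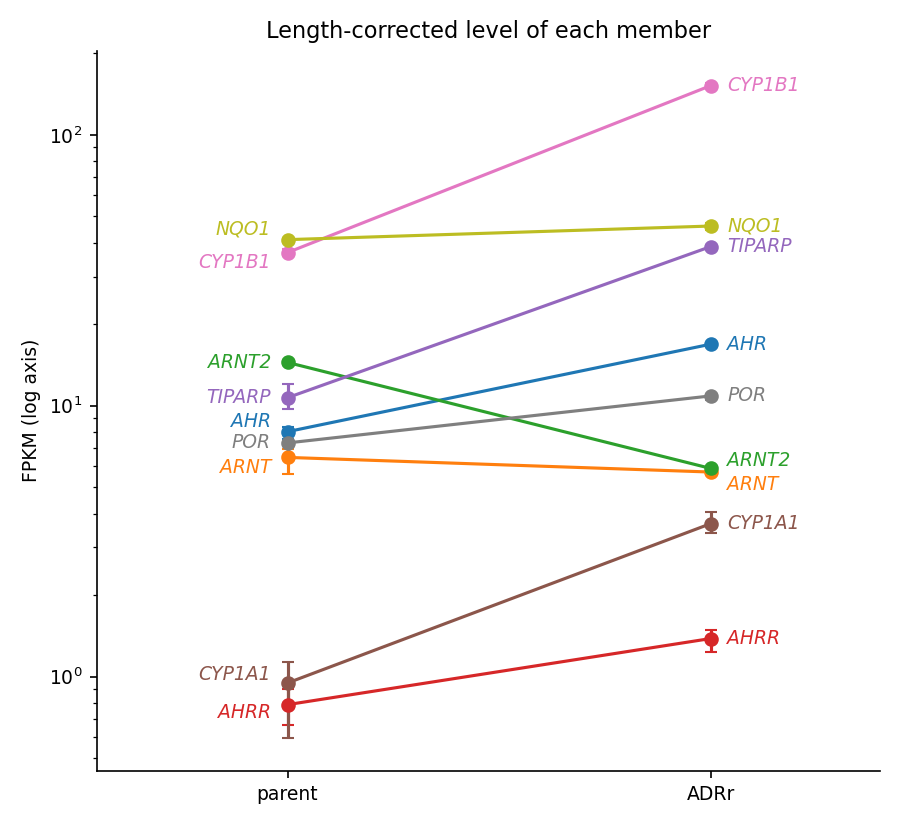
Mean level of each gene per length (y axis, FPKM on a log axis) in parent and ADRr cells, with whiskers from the lowest to the highest of 3 libraries. CYP1B1 rises from 36.8 to 151.9 FPKM and crosses NQO1, while ARNT2 falls from 14.5 to 5.87 FPKM and meets ARNT.

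Within libraries, CYP1B1 rose relative to AHR. The FPKM ratio of CYP1B1 to AHR was 4.48, 4.54 and 4.74 in parent and 9.16, 8.72 and 9.15 in ADRr libraries, and the groups did not overlap. The ratio of NQO1 to POR was 5.60, 6.54 and 4.95 in parent and 4.19, 4.29 and 4.23 in ADRr libraries, again without overlap. The log2 differences were 0.97 and -0.42, each with an exact permutation p = 0.1, the smallest possible, and adjusted p = 0.13 over 4 ratios.

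Position on the chromosome was examined because CYP1B1 and ARNT2 lie near stretches of genes that moved in the same direction. Of the 50 tested genes nearest to CYP1B1 (chromosome 2), 35 were called higher and 3 lower, with a median log2 fold change of 0.56. CYP1B1, at 2.04, exceeded all but 2 of them, LINC00211 (2.80) and RMDN2-AS1 (2.76). Of the 50 nearest to ARNT2 (chromosome 15), 4 were called higher and 25 lower (median -0.41), and 46 had a higher log2 fold change than ARNT2. The part of these surroundings in the change of CYP1B1 or ARNT2 was not tested.

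CYP1A1 lies on the same arm of chromosome 15 as ARNT2 and went against its surroundings. Of its 50 nearest tested genes, 4 were called higher and 27 lower, the median log2 fold change was -0.45, and the highest of them, DNM1P35, reached 0.76, below the 1.94 of CYP1A1. TIPARP (1.85) stood among neighbours with a median of 0.02, 4 of which exceeded it, and AHR (1.07) among neighbours with a median of 0.02, 5 of which exceeded it. POR (0.57) had neighbours with a median of -0.18, AHRR (0.80) of 0.03, NQO1 (0.16) of 0.04 and ARNT (-0.18) of -0.07.

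**Figure D4:**
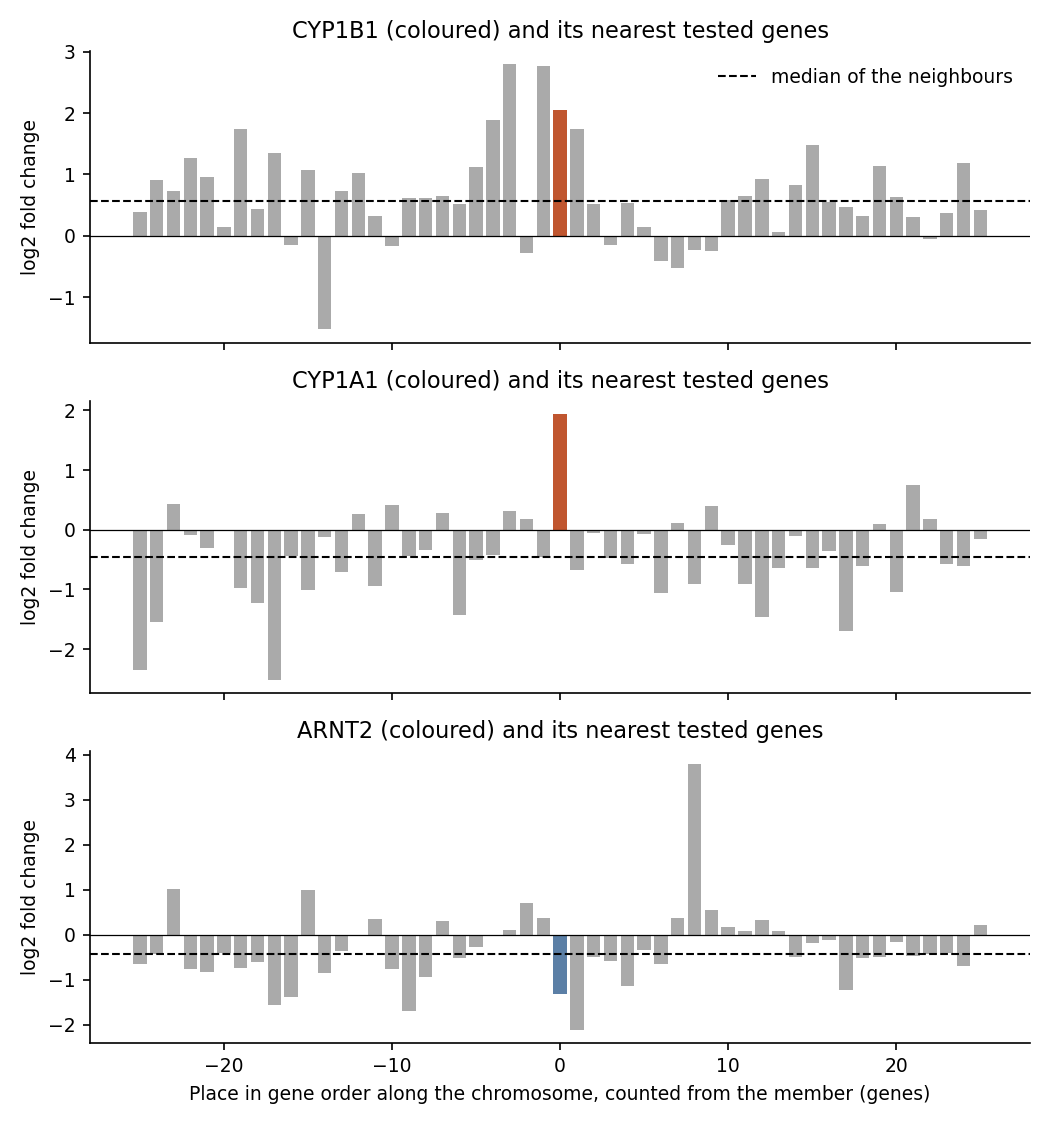
Log2 fold change, ADRr against parent (y axis), of CYP1B1, CYP1A1 and ARNT2 (coloured) and of their 50 nearest tested genes (grey), by place in gene order (x axis), with the neighbours' median dashed. Most neighbours of CYP1B1 are above 0 (median 0.56), while CYP1A1 stands at 1.94 among neighbours with a median of -0.45.

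Other genes of the pathway, in 7 lists, were described beside these members, 123 genes in all. Of these, 75 were tested, 33 (44.0%) were called higher and 20 (26.7%) lower, against 29.2% and 29.6% of all tested genes, and their median log2 fold change was 0.22 against -0.01. A further 37 genes of the lists had at most 3 counts in every library, and the rest, such as PTGS2 with 0 to 13 counts, were also too low to be tested. The counts are a description of hand-written lists and were given no test of their own. Neighbours on the chromosome were counted for the members only, so the part of position in the changes of list genes was not tested. This holds, for example, for NRIP1 and SIM2 on chromosome 21 and for SERPINB2 and CYB5A on chromosome 18.

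Of the 4 chaperones that hold AHR in the cytoplasm, none was called higher and 2 (50%) were called lower. All tested genes had shares of 29.2% and 29.6%. HSP90AA1 fell from 28889, 30292 and 29535 counts to 15601, 13595 and 16004, a log2 fold change of -1.05 (SE 0.049, adjusted p = 1.7e-14), and HSP90AB1 fell with a log2 fold change of -0.76 (adjusted p = 7.2e-13). Both are abundant general chaperones whose clients reach far beyond AHR. PTGES3, the co-chaperone p23, had a log2 fold change of -0.16 (adjusted p = 0.0098) and was below the fold threshold.

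Of 10 coregulators, 5 (50%) were called higher and 2 (20%) lower, against 29.2% and 29.6% of all tested genes. NRIP1, a nuclear receptor corepressor, rose from 116, 141 and 120 counts to 541, 484 and 545 (log2 fold change 1.98, adjusted p = 3.4e-13). The coactivators NCOA1 (1.16, adjusted p = 2.5e-12) and NCOA3 (0.72, adjusted p = 1.9e-10) rose by less, while the chromatin remodeller SMARCA4 fell (-0.69, adjusted p = 3.0e-10). NCOA2, NCOR1 and MED1 had log2 fold changes between -0.22 and 0.04 and were not called.

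Among the other bHLH-PAS factors, many of which share ARNT or an ARNT-like partner, 8 of 12 were tested. Calls went higher for 5 (62.5%) and lower for 1 (12.5%), against 29.2% and 29.6% of all tested genes. EPAS1, the hypoxia-inducible factor HIF-2 alpha, had 2218, 2056 and 2202 counts in parent and 8988, 8214 and 8927 in ADRr libraries, a log2 fold change of 1.94 (SE 0.050, adjusted p = 4.9e-19). It lies on chromosome 2, within the span of the 100 tested genes nearest to CYP1B1, of which 67 were called higher and 9 lower. The part of these surroundings in the change of EPAS1 was not tested. HIF1A, in contrast, had 5378 to 5443 counts in parent and 5253 to 6250 in ADRr libraries and a log2 fold change of 0.02 (adjusted p = 0.79). Of the clock factors, ARNTL rose (1.57, adjusted p = 2.7e-12) and CLOCK fell (-0.63, adjusted p = 6.0e-08), and SIM2, a developmental repressor, rose (1.29, adjusted p = 8.3e-08).

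The kynurenine pathway turns tryptophan into metabolites of which several bind AHR. Its list, which also holds the tryptophan-using oxidase IL4I1, had 13 genes, of which 7 were tested. Among these 7, 4 (57.1%) were called higher and 2 (28.6%) lower, against 29.2% and 29.6% of all tested genes. IL4I1, a secreted amino acid oxidase that forms AHR ligands from tryptophan, had 22, 17 and 19 counts in parent and 164, 179 and 212 in ADRr libraries, a log2 fold change of 3.18 (SE 0.20, adjusted p = 3.3e-12), larger than that of any of the 9 pathway members. IDO1, which opens the tryptophan ring, had 9, 23 and 23 counts in parent and 54, 42 and 99 in ADRr libraries (log2 fold change 1.73, SE 0.34, adjusted p = 1.2e-04), with a wide spread in both groups. TDO2, which carries out the same step, had 1, 1 and 3 counts in parent and 0 in each ADRr library. Of the aminotransferases that form kynurenic acid, KYAT3 rose (0.82, adjusted p = 1.2e-07) and AADAT (-1.12, adjusted p = 3.6e-05) and KYAT1 (-0.89, adjusted p = 2.95e-06) fell.

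Of 19 other genes known as AHR targets, 11 were tested. Calls went higher for 7 (63.6%) and lower for 2 (18.2%), against 29.2% and 29.6% of all tested genes. With DESeq2, or edgeR with no filter on low counts, 6 were called higher, and with each library left out in turn 6 or 7 were. SERPINB2, an inhibitor of plasminogen activators, had 2, 0 and 3 counts in parent and 59, 53 and 87 in ADRr libraries. Its ADRr mean was 20.9 times the level worth 3 counts in each parent library, which the third parent library reached. The 95% interval of its fitted log2 fold change was 4.15 to 6.12. ABCG2, a drug efflux pump, had 75, 75 and 52 counts in parent and 237, 203 and 197 in ADRr libraries (log2 fold change 1.58, SE 0.17, adjusted p = 1.8e-08). STC2, a secreted glycoprotein, rose (1.24, adjusted p = 1.8e-05), and NEDD9 (-0.36, adjusted p = 6.4e-05) and CDKN1B (-0.32, adjusted p = 0.0018) fell. Of the drug-metabolism targets, ALDH3A1 had at most 4 counts in any library and UGT1A6, GSTA1 and GSTA2 had 0, while CYP2S1 had 154, 110 and 161 counts in parent and 161, 153 and 205 in ADRr libraries and was not called (log2 fold change 0.22, adjusted p = 0.19).

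Of the enzymes that receive electrons from POR, 25 of 44 had at most 3 counts in every library, with CYP1A2, CYP2C8, CYP2C19 and CYP3A4 of hepatic drug metabolism among them. Of the 13 tested, 4 were called higher and 3 lower, shares of 30.8% and 23.1% that lay near those of all tested genes. CYP1A1 and CYP1B1, which POR also serves and which were called higher, were left out of this list because they are members. HMOX1, the inducible haem oxygenase, rose from 293, 282 and 286 counts to 666, 615 and 624 (log2 fold change 1.07, adjusted p = 3.0e-10), SQLE of sterol synthesis rose (0.83, adjusted p = 1.9e-07), and so did CYP20A1 (0.41, adjusted p = 1.2e-04). CYP2U1 fell (-0.59, adjusted p = 1.0e-05). CYP39A1 (-1.11, adjusted p = 0.015) and CYP26B1 (-0.33, adjusted p = 0.013) were called lower by edgeR and not by DESeq2 (adjusted p = 0.065 and 0.060). Without parent replicate 3 or ADRr replicate 2 CYP39A1 was no longer called (adjusted p = 0.094 and 0.078), and neither was CYP26B1 without ADRr replicate 3 (adjusted p = 0.0503).

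The 23 electron donors and quinone or carbonyl reductases were divided, with 8 called higher and 8 lower and a median log2 fold change of -0.03. Each count was a share of 34.8%, against 29.2% and 29.6% of all tested genes. BLVRB, a flavin and biliverdin reductase, rose from 780, 720 and 1047 counts to 2172, 2057 and 2114 (log2 fold change 1.25, adjusted p = 3.7e-12). TXNRD1, thioredoxin reductase, rose (0.91, adjusted p = 7.8e-14), as did CYB5A, cytochrome b5, which can hand electrons to P450 enzymes beside POR (0.69, adjusted p = 8.6e-07). PGRMC1, a haem-binding partner of P450 enzymes, fell (-0.90, adjusted p = 2.6e-12), as did AKR1B1 (-0.80, adjusted p = 2.8e-12) and CYB5R2 (-0.88, adjusted p = 3.3e-04). CBR1, a carbonyl reductase that acts on anthracyclines, had a log2 fold change of 0.22 (adjusted p = 0.011) and was below the fold threshold, and CBR3 had one of 0.00 (adjusted p = 1.00).

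**Figure D5:**
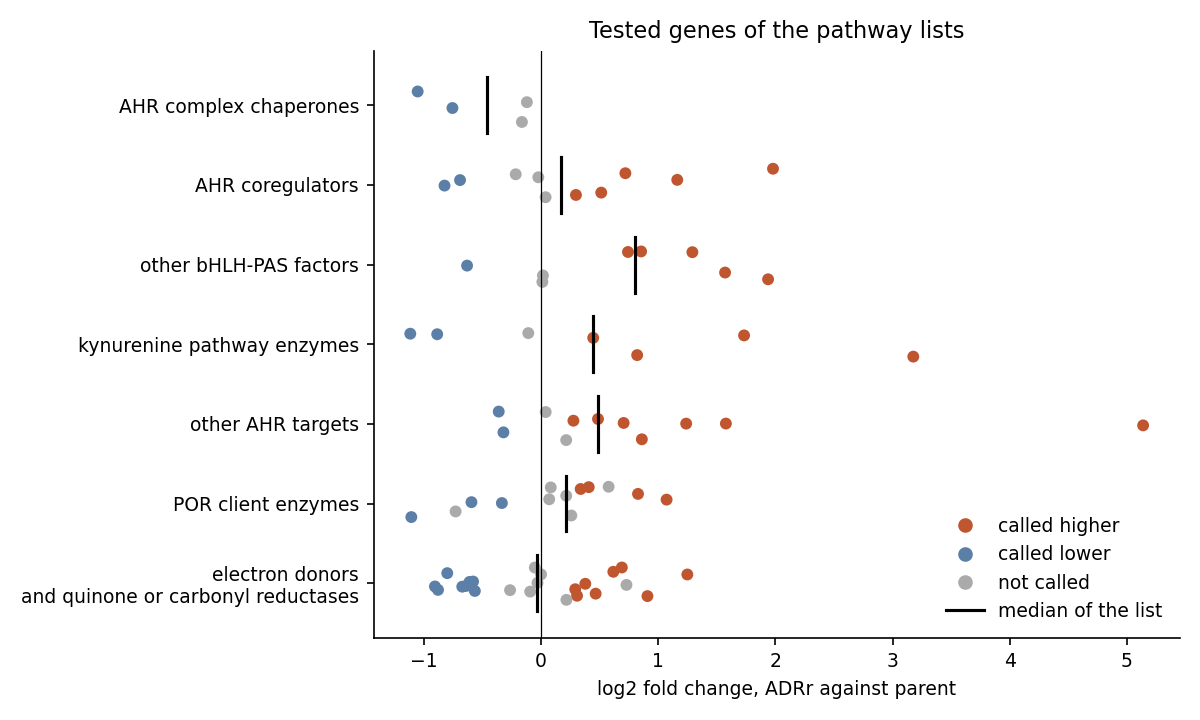
Log2 fold change, ADRr against parent (x axis), of the tested genes of 7 pathway lists (y axis; 1 point per gene, coloured by call, vertical bars are medians, height within a list is arbitrary). The bHLH-PAS factors have the highest median (0.80) and the chaperones the lowest (-0.46); the point above 5 is SERPINB2, whose fitted value depends on its near-0 parent counts.

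The tested genes whose log2 CPM followed AHR most closely over the 6 libraries were CLIP4, SDCBP and MTHFD2, and for CYP1B1 they were NAMPT, its pseudogene NAMPTP1, which may share its reads, and TNFSF15. Pearson's r was over 0.999 for each of these. With 2 groups far apart, such values mostly restate the difference between the groups, and 744 genes had r over 0.99 with AHR and 869 with CYP1B1.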

How the data were processed

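Libraries of RNA from 3 parent and 3 ADRr samples were read from both ends on a NovaSeq instrument. The study's methods name polyadenylated RNA and the CORALL kit, while the labels describe another kit and amount of RNA. Per the submitters' processing notes, fastp, HISAT2 2.0.5, featureCounts 1.5.0-p3, DESeq2 1.20.0 and GRCh38 (hg38) were used. The authors deposited raw integer counts for each gene and, computed from these, FPKM. All columns of both tables were matched to samples by name.

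The software was edgeR 4.0.16 and limma 3.58.1 under R 4.3.3. The filterByExpr function retained 15242 genes, which were scaled by TMM (factors 0.987 to 1.01) and compared by the quasi-likelihood test, with Benjamini-Hochberg adjustment over all of them. Fold changes come from that fit, CPM are TMM-scaled, and 95% intervals are from its standard errors. The code was tested on simulated data, in which far fewer genes changed than were called here. FPKM ratios were compared by exact permutation tests. Libraries of a group differed by more than sampling noise (chi-square over degrees of freedom 2.58 to 8.25).

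Genes were named by rule: all members, in each list the 3 largest increases and 3 largest decreases among called genes and every called gene that changed by at least 1 on the log2 scale with at least 20 normalized counts, overlapping genes with at least 10 counts, and the 3 genes most like AHR and CYP1B1. Other genes named (such as PTGES3, HIF1A, TDO2, NQO2, CBR1 and LINC00211) were chosen after their values were seen. A few genes are not reported by name here. The members and lists were chosen with earlier results of these data known.

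Alternatives were other scaling, DESeq2 1.42.0, other filters, limma-trend on log2(FPKM + 1) or log2(FPKM + 0.1), a replicate block, each library left out, other thresholds, ratios of counts, and windows of 20 or 100 neighbours.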

Additional observations from a re-analysis of the deposited data

How the results depend on the processing

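Of the 9 members, 6 were called higher and 1 lower under every other scaling, filter, gene set and tool tried, with the exceptions given here. With a threshold of 1.2 on the log2 scale, 3 members were called higher, 10 genes of the pathway lists higher and 0 lower, in place of 6, 33 and 20. With the adjusted p alone, 7 members were called higher, NQO1 being added. With each library left out in turn, 6 members were called higher throughout and 1 to 2 lower; the count of 2 came without parent replicate 3, where ARNT was added. Genes of the lists called then ranged from 31 to 34 higher and from 19 to 21 lower. Over the 16 alternatives, log2 fold changes ranged from 2.02 to 2.07 for CYP1B1, 1.27 to 2.09 for CYP1A1, 1.77 to 1.93 for TIPARP, 0.99 to 1.10 for AHR, 0.41 to 0.90 for AHRR, 0.47 to 0.65 for POR, 0.14 to 0.19 for NQO1, -0.27 to -0.13 for ARNT and -1.33 to -1.17 for ARNT2. The lowest values of CYP1A1 and AHRR came with log2(FPKM + 1), which by its construction shrinks changes of genes at low FPKM. No member or ratio, and no called gene of the lists named here, changed direction under these alternatives; genes named that were not called were not followed.

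With the replicate number as a block, 6 members were called higher and 1 lower, and 33 and 20 genes of the lists, the same counts as without it. Over all tested genes it gave 4406 higher and 4464 lower calls, in place of 4451 and 4507. The libraries share only a number: the correlations of same-numbered deviations from the group means were 0.0074, -0.021 and -0.046. The paired log2 differences of the ratios were -1.13, -0.26, -0.42 and 0.97 for ARNT2 to ARNT, AHRR to AHR, NQO1 to POR and CYP1B1 to AHR, where 3 pairs cannot give a p below 0.25.

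Medians of neighbours near 0 changed sign with the window, from -0.18 over 50 to 0.0044 over 100 around POR, from 0.04 over 50 to -0.06 over 100 around NQO1, and from 0.02 over 50 to -0.08 over 20 around AHR. Depth limits the genes at few counts: CYP1A1 and AHRR rest on 33 to 259 counts per library. In the lists, 37 genes had 3 counts or fewer in every library and could not be judged, nor could the other genes too low to be tested.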
